A study of Mus musculus with 24 samples.

Results

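Whole cerebellum of mice labelled with a loss of Atm in the nervous system was compared with control cerebellum by sequencing of total RNA. The comparison holds every cerebellum library labelled with the genotype Atm Nes-cre (2 libraries, called Atm mutants) and every cerebellum library labelled Control (4 libraries), which makes 6 of the 24 libraries of the series. By this label and the study's methods, a conditional Atm allele was removed by the Cre recombinase under the Nestin promoter, which acts in neural progenitors, so that cells of other descent in the same tissue, such as microglia, vessels and blood, would keep the gene. The study's figure of cerebellum RNA sequencing lists 2 single Atm mutants and writes their genotype as Atm-/-, a loss in all cells. The labels are followed here, and whether other cells kept Atm in these samples is not settled. The deleted exons, and whether the controls carried Cre or the conditional allele, are not given in the sources used here. Cerebella of genotype Aptx-/- (2 libraries, Aptx mutants), which lack aprataxin in all cells, and of genotype Atm Nes-cre; Aptx-/- (6 libraries, double mutants) were used as references of the same tissue. The study used mice of either sex and states an age of 10 months for the double mutants and their littermate controls. No age is stated for the Atm mutants.

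ATM is a protein kinase that is activated at DNA double-strand breaks and phosphorylates checkpoint and repair proteins, p53 among them. Its loss in humans causes ataxia telangiectasia, a childhood disease with degeneration of the cerebellum in which Purkinje and granule neurons are lost. Aprataxin, the product of Aptx, removes abnormal ends at single-strand breaks, and its loss causes a different recessive ataxia. In the cerebellum, granule neurons relay input to Purkinje cells, the inhibitory output neurons of the cortex, while Bergmann glia, a specialised astrocyte, take up glutamate at their synapses.

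Values were FPKM, fragment counts divided by transcript length and by library size, so levels are comparable between genes per unit of length. Sums of FPKM were 241090 and 245169 in the Atm mutants and 229937 to 236086 in the controls, and 12385 to 12691 genes reached 1 FPKM in these 6 libraries. Depth is unknown because no counts were used. All mutant libraries carry the code G1 in their names and all controls the code C1, which is called the library series here, and the number formats differ as well: 98.5% to 99.2% of the values above 0 have more than 10 significant digits in the controls, against 0% and 0.0114% in the Atm mutants and at most 0.0448% in the other mutants except double mutant 6, where 99.8% do. Loss of Atm and library series therefore cannot be told apart in the comparison with controls. The Aptx mutants share series G1 with the Atm mutants, and that comparison is given beside the main results for this reason. Across tested genes the Atm mutants correlated with each other at 0.989, with the controls at 0.969 to 0.974 and with the Aptx mutants at 0.985 to 0.989. Transcripts of the Y-linked genes Ddx3y, Eif2s3y, Uty and Kdm5d were at most 0.048 FPKM in both Atm mutants and all controls. The reference groups were mixed: Ddx3y was 26.5 FPKM in Aptx mutant 1 and 0.0343 in Aptx mutant 2, and it was 24.7 to 28.9 in double mutants 2, 3 and 5, 2.3 in double mutant 6 and at most 0.103 in the other two.

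Atm itself was not lower in the Atm mutants at the level of the whole gene. Its FPKM was 7.45 and 8.22 in the Atm mutants and 6.88, 6.75, 7.05 and 7.13 in the controls, a log2 difference of 0.15 with a standard error (SE) of 0.08 and an adjusted p of 0.209. The Aptx mutants, which carry no Atm deletion by label, had 8.69 and 9.11. A gene-wide value can miss the loss of a few exons and so does not check the labels here. Aptx was 3.39 and 3.67 in the Atm mutants, within or just above the 3.11 to 3.59 of the controls, and lower in the Aptx mutants at 2.77 and 2.25.

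Of 22562 genes, 12963 reached 1 FPKM in at least 2 of the 6 libraries and were tested on log2(FPKM + 1), a scale that understates the change of low genes. A gene below 1 FPKM throughout a group passed only through the group where it is high, which tilts its difference toward that side. Prtg, Wfdc10, Gm10600 and Gm10595 passed in this way through the Atm mutants. Genes with an adjusted p (limma, Benjamini-Hochberg over all tested genes) below 0.05 are termed called, and the words rose and fell are used only of them. Against controls 1338 genes, 10.3% of those tested, were called, of which 899 (6.94%) were higher and 439 (3.39%) lower in the Atm mutants. With an absolute log2 difference above 1 as well, 129 genes (0.995%) remained, 63 higher (0.486%) and 66 lower (0.509%). Both Atm mutants lay outside the range of the 4 controls for 1331 of the 1338 called genes, and for 35.1% of all tested genes, above it for 24% and below it for 11.2%. The split between directions depended on scaling: 67.2% of called genes were higher as deposited, 49.6% after quantile normalization and 47.6% after rescaling each library to a common median, and the median log2 difference over all genes moved from 0.05 to 0.01 in both cases. The number of calls depended on single libraries, with 316 calls without Atm mutant 1, 362 without Atm mutant 2, 815 without control 1 and 789 without control 3.

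Within library series G1 the same Atm mutants differed much less from the Aptx mutants. There 23 genes (0.177%) were called, 11 higher (0.0849%) and 12 lower (0.0926%), and the median absolute log2 difference over all tested genes was 0.08 against 0.14 for the comparison with controls. The 899 genes called higher against controls had a median log2 difference of 0.36 there and 0.04 against the Aptx mutants. The 439 genes called lower had medians of -0.60 and -0.05. Of all 1338 genes, 11 were also called against the Aptx mutants. Both comparisons use the same Atm libraries, and the second also contains the effect of Aptx loss with opposite sign.

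**Figure D1:**
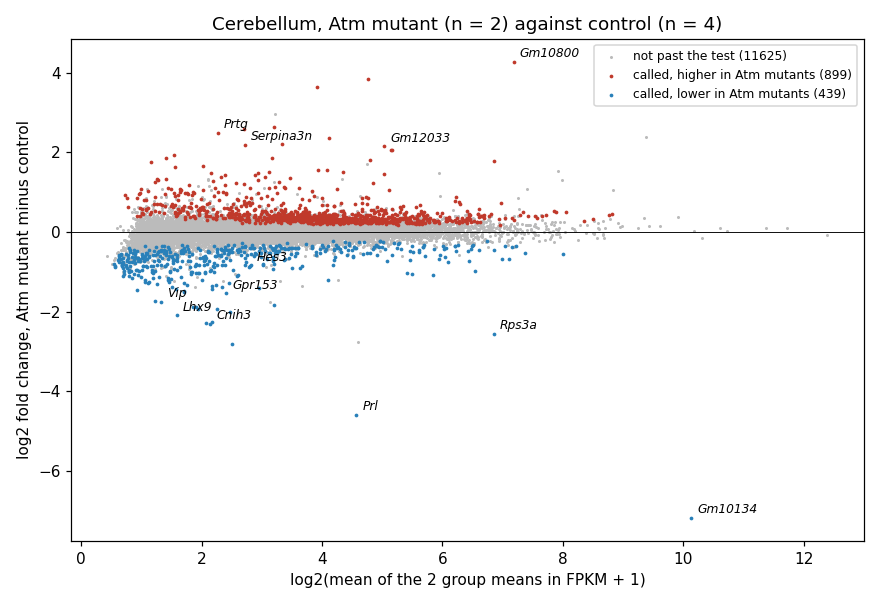
Log2 difference in FPKM + 1 between Atm mutants and controls (vertical) against the log2 of the mean of the 2 group means plus 1 (horizontal), 1 dot per tested gene. Of the 12963 genes, 899 were called higher and 439 lower, and the extremes are Gm10800 at 4.28 and Gm10134 at -7.19.

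The 14 largest ranked falls against controls were those of 3 pituitary hormone genes (Prl, Gh and Pomc), the neuropeptides Nts and Vip, the transcription factors Lhx9 and Tfap2d, the ribosomal protein gene Rps3a, and Cnih3, Galntl2, Zcchc12, Gpr153, Pla2g4b and Ttc36. Cnih3, an auxiliary subunit of AMPA-type glutamate receptors, was 0.336 and 0.627 FPKM in the Atm mutants and 6.88, 5.87, 7.03 and 5.55 in the controls. It fell by 2.31 on the log2 scale (SE 0.20, adjusted p = 7.72e-06), and the groups were far apart. The Aptx mutants stood beside the Atm mutants at 1.29 and 0.429, and the log2 difference between the 2 mutants was -0.29 (adjusted p = 1). Lhx9, a LIM homeobox transcription factor of the developing midbrain and diencephalon, was 0.0756 and 0.179 against 4.4, 3.69, 4.86 and 2.58 and fell by 2.09 (adjusted p = 0.000871). The neuropeptide Vip was 0.0245 and 0.213 against 3.35, 3.37, 3.46 and 1.36 and fell by 1.75 (adjusted p = 0.00201). Neurotensin, Nts, was listed at 0 and at 1.15 FPKM in the Atm mutants and between 2.89 and 7.12 in the controls, and fell by 1.88 (adjusted p = 0.00428). The Aptx mutants were at 0.82 and 0.103 for Lhx9, 0.521 and 0.0208 for Vip and 0.215 and 0.0541 for Nts, below every control in each case.

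Other genes among the 14 largest falls had wider spreads. Galntl2, a glycosyltransferase gene, was 0.248 and 0.94 in the Atm mutants, 5.49, 3.9, 3.28 and 7.04 in the controls and 12.8 and 5.34 in the Aptx mutants. It fell by 1.89 against controls (adjusted p = 0.0224), while the log2 difference of -2.59 from the Aptx mutants did not pass the test (adjusted p = 0.112). Zcchc12, Pla2g4b (a cytosolic phospholipase A2), Ttc36 and Tfap2d (an AP-2 transcription factor) fell by 1.85, 1.50, 1.48 and 1.45. For each of these 4 genes the Atm mutants lay below every control, at no more than 4.06 FPKM for Zcchc12 and 0.733 for the others. The calls of Galntl2, Ttc36, Pla2g4b and Tfap2d were lost when either Atm mutant was left out, and those of Zcchc12 and Nts without Atm mutant 1. Galntl2 was also lost without control 1, and Pla2g4b when any 1 control was left out.

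Among the genes that rose most, Prtg (protogenin, an immunoglobulin superfamily protein of the embryonic nervous system) was 6.53 and 7.81 FPKM in the Atm mutants and 0.42, 0.42, 0.452 and 0.477 in the controls. Its log2 difference was 2.50 (SE 0.16, adjusted p = 5.24e-07), 5.65-fold on the FPKM + 1 scale. The Aptx mutants had 3.9 and 7.55, and the double mutants 4.6 to 5.92 with a median of 5.3, so all mutants of series G1 lay above all controls. Serpina3n, a protease inhibitor and a marker of reactive astrocytes, was 8.11 and 11.5 against 1.6, 1.19, 1.56 and 1.03 and rose by 2.19 (adjusted p = 4.69e-05). In the Aptx mutants it was 9.08 and 9.24. Cgnl1, a cell junction protein, was 27.5 and 21.3 against 6.73, 8.28, 7.11 and 7.86 and rose by 1.57 (adjusted p = 7.72e-06), with the Aptx mutants again close at 21.2 and 21. Acta2, smooth muscle actin, was 5.87 and 6.65 against 1.97, 1.83, 1.79 and 1.5 and rose by 1.39 (adjusted p = 1.9e-05), and was 5.85 and 7.24 in the Aptx mutants.

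The remaining ranked genes that rose were Pla2g4e (1.86), Wfdc10 (1.86), the histone H4 gene Hist4h4 (1.79), the matrix protein gene Hmcn1 (1.66), Il22 (1.49), Fabp7 (1.46), the thrombin receptor F2r (1.44), Greb1l (1.38), Nr4a2 (1.32) and Eomes (1.28). Fabp7, a fatty acid binding protein of Bergmann glia, was 52.1 and 42 FPKM in the Atm mutants, 17.2, 16.1, 18.1 and 14.5 in the controls and 33.4 and 20.5 in the Aptx mutants. Both Aptx mutants lay between the Atm mutants and the controls. Eomes, a transcription factor of unipolar brush cells, was 6.97 and 4.07 against 1.2 to 1.84. Of Il22, 68.8% of the sampled 31-base stretches occur elsewhere in the genome, so its reads can be shared. Without Atm mutant 1 the calls of Hist4h4, Il22, Fabp7 and Eomes were lost, and those of Pla2g4e, F2r, Greb1l and Nr4a2 were lost when either Atm mutant was left out. Wfdc10 (5.06 and 1.41 FPKM against at most 0.181) was lost without any 1 control and Greb1l also without control 1 or control 4. Nr4a2 passed with an adjusted p of 0.0493 and was lost under most alternatives. The lowest log2 difference of all tested genes, -7.19 (adjusted p = 0.0195), belonged to the uncharacterised gene Gm10134, named after its values were seen, at 0.588 and 0.122 FPKM in the Atm mutants and 3.69, 151, 236 and 8585 in the controls. That call was lost when either Atm mutant was left out, in a fit of the 6 libraries alone and with the replicate block. In passing over uncharacterised symbols, the ranking left out 5 genes among the falls and 23 among the rises.

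**Figure D2:**
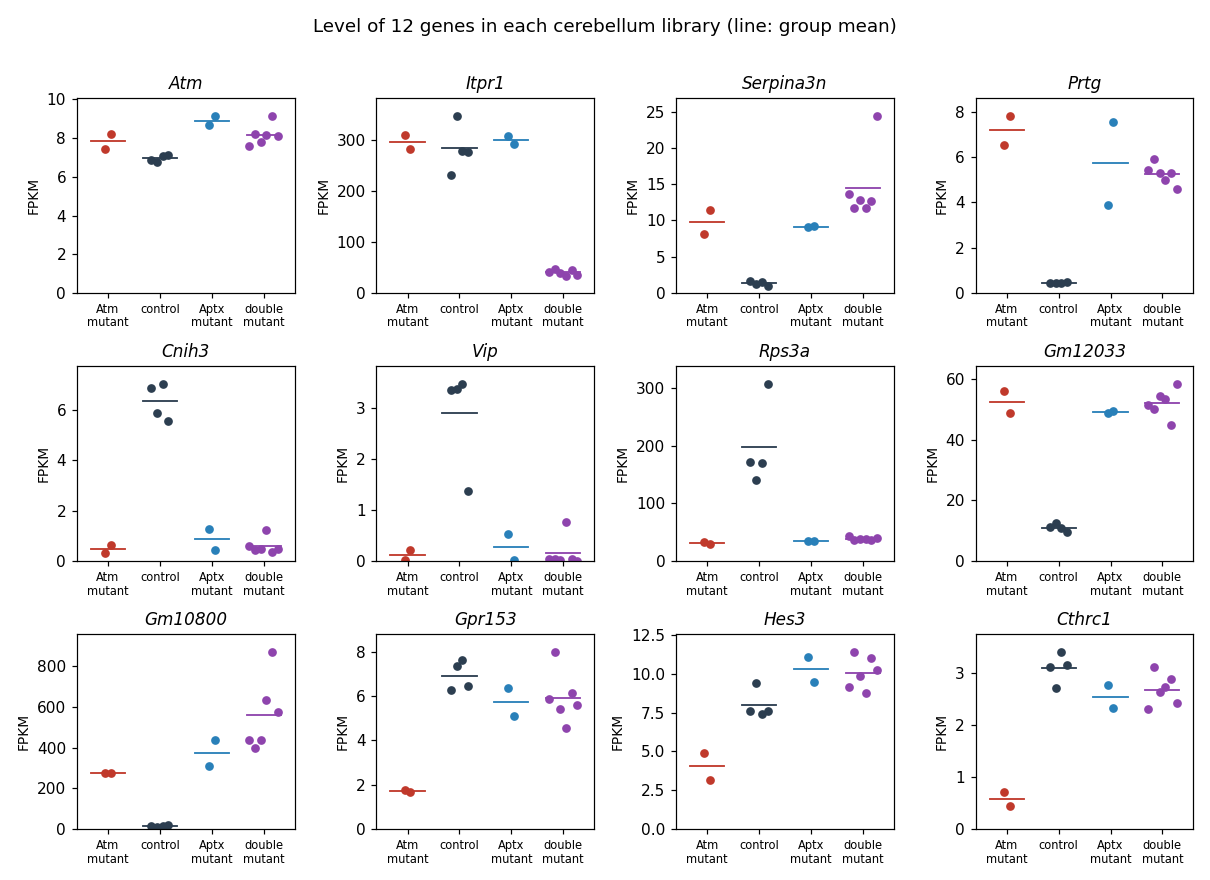
FPKM on linear axes of 12 genes in each cerebellum library of the 4 genotypes, with 1 dot per library and a line at the group mean. For Prtg, Serpina3n, Cnih3, Vip, Rps3a, Gm12033 and Gm10800 the Aptx mutants and double mutants sit with the Atm mutants and away from the controls. Itpr1 is low only in the double mutants (33.6 to 48.1), and Gpr153, Hes3 and Cthrc1 are lower in the Atm mutants than in the other groups.

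Many of the uncharacterised genes that rose are near-identical copies of expressed genes. Of the tested genes, 7.99% have more than 50% of their sampled 31-base stretches elsewhere in the genome (mouse build NCBIM37, mm9), against 16.8% of the genes called higher and 14% of those called lower. Of the genes past both thresholds the share was 63.3% among those higher and 12.5% among those lower. Symbols made of Gm and digits made up 3.69% of tested genes and 61.9% of the genes higher past both thresholds.

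The glycolytic enzyme gene Gapdh and its copies showed this most plainly. Gapdh was 214 and 197 FPKM in the Atm mutants and 223, 292, 229 and 200 in the controls, and its log2 difference of -0.19 did not pass the test (adjusted p = 0.306). Its 18 tested near-copies, genes that share at least 50% of their 31-base stretches with it, included 15 that rose and 0 that fell. Their summed level was 288 and 265 FPKM in the Atm mutants and 79.4, 94.8, 82.4 and 73.8 in the controls. Gene and copies together came to 502 and 462 against 302, 387, 312 and 273, so the sum was higher in the Atm mutants too. In the Aptx mutants the copies summed to 249 and 242 and in the double mutants to between 242 and 309, all above every control. Gm12033, which differs from Gapdh at 1 of 1002 coding bases, was 55.9 and 48.8 against 11.1, 12.5, 10.8 and 9.65 and rose by 2.15 (adjusted p = 1.51e-08). Gm10359, whose coding sequence is 100% identical to that of Gapdh, was 43.8 and 41.1 against 10.9 to 12.8 and rose by 1.80 (adjusted p = 1.51e-08).

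Rps3a, a protein of the small ribosomal subunit, went the other way from its copies. It was 32.6 and 29.8 FPKM in the Atm mutants and 172, 141, 170 and 307 in the controls, a fall of 2.56 (SE 0.20, adjusted p = 2.97e-06) without overlap. Its copy Gm10119 was 95.9 and 87.7 against 61, 54.9, 58.4 and 41.8 and rose by 0.77 (adjusted p = 0.00428). The copy Gm9000 was 85.2 and 84.4 against 44.7, 41.3, 48.7 and 8.49, a difference of 1.47 that did not pass the test (adjusted p = 0.053). Summed over the gene and both copies, the level was 214 and 202 against 278, 237, 277 and 357, so a lower total remained. For Rps12, another small-subunit protein, the same sum hardly differed: 49.7 and 50.5 against 76.4 to 88.2 for the gene, which fell by 0.74 (adjusted p = 7.6e-05), and 136 and 137 against 135, 141, 147 and 148 with its 3 copies. Of these, Gm15887 (0.53) and Rps12-ps3 (0.62), both identical in coding sequence, rose. Rpl3, a large-subunit protein, was 61 and 62.6 against 129, 121, 124 and 118 and fell by 0.98 (adjusted p = 6.06e-07), while its copy was only 4.67 and 4.66 against 3.09 to 3.77.

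The extent of likeness is visible in 90 coding bases of each pair, read 5′ to 3′ from the annotated coding sequence with the bases that differ within the pair in capitals. For Rps3a (chr3:85941862-85946624, minus strand) and Gm10119 (chr14:88522821-88523615, minus strand), positions 589 to 678 hold 2 of the 4 differences along 795 coding bases, and for Gapdh (chr6:125111871-125116485, minus strand) and Gm12033 (chr11:20234837-20236087, minus strand), positions 425 to 514 hold the only one. A read that covers none of the bases in capitals would match both members of a pair.
Rps3a: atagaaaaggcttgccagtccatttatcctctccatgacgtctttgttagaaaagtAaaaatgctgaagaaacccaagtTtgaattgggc
Gm10119: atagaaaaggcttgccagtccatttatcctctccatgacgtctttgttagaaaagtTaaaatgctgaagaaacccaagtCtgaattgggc
Gapdh: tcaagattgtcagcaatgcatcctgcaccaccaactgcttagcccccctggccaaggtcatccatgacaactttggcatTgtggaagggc
Gm12033: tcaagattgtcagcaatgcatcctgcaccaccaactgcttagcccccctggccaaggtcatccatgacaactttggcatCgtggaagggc

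**Figure D3:**
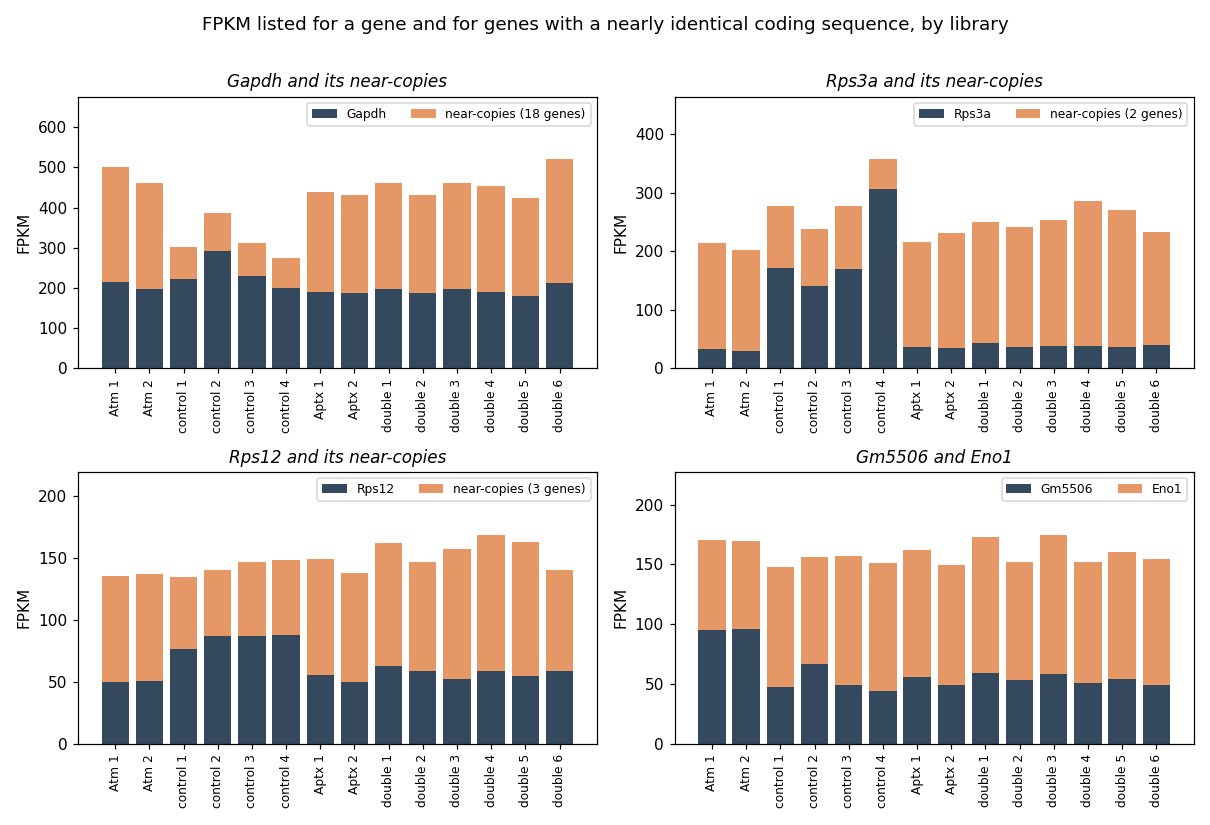
Stacked FPKM of a gene and of its near-copies in each of the 14 cerebellum libraries for Gapdh with 18 copies, Rps3a with 2, Rps12 with 3, and the pair Gm5506 and Eno1. The near-copy part of the Gapdh bar is 242 to 309 FPKM in all mutants and 73.8 to 94.8 in the controls, while the Rps12 total stays between 135 and 169 in all libraries.

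The 5 largest rises among all tested genes belonged to a set of 9 uncharacterised genes in 2 places, chromosome 2 near 98.5 Mb and the start of chromosome 9. Gm10800, Gm10801, Gm10722, Gm11167, Gm10718 and Gm10717 share short stretches with one another, and the other members were not compared. The whole set was chosen after its values were seen. Gm10800 was 276 and 274 FPKM in the Atm mutants and 13, 9.89, 13 and 17.9 in the controls and rose by 4.28 (adjusted p = 5.2e-07), 19.5-fold on the FPKM + 1 scale. In the Aptx mutants it was 310 and 437, and in the double mutants 399 to 871 with a median of 509. Gm10722 was 52.5 and 47.3 against 2.24, 1.79, 2.66 and 3.64 and rose by 3.85 (adjusted p = 6.06e-07). Gm11167, Gm10801, Gm10718, Gm10717, Gm17535, Gm10716 and Gm10720 rose by 3.65, 2.63, 2.58, 1.64, 1.08, 0.97 and 0.92. Of these, Gm10718, Gm10717, Gm17535, Gm10716 and Gm10720 passed the filter of 1 FPKM only through the Atm mutants, which tilts them toward rises. Across the 9 genes the log2 differences between Atm and Aptx mutants ran from -0.20 to -0.46 with none called. The set thus stood at a similar level in both single mutants.

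A stretch of 150 coding bases from each of the 2 most abundant members shows what they share, with bases that lie in 31-base stretches found in both genes in capitals (118 in Gm10800, positions 1 to 150, and 101 in Gm10722, positions 156 to 305). Gm10800 lies at chr2:98506704-98507458 on the minus strand and Gm10722 at chr9:3000922-3002330 on the plus strand. Of the 31-base stretches of Gm10800, 76.5% of those sampled occur more than once in the genome, and 88.9% for Gm10722, so reads cannot be assigned to either gene with certainty.
Gm10800: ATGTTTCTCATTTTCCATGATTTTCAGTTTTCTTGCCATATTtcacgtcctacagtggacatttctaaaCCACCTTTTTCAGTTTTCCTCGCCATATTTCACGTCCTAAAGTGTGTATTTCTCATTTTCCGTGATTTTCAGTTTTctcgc
Gm10722: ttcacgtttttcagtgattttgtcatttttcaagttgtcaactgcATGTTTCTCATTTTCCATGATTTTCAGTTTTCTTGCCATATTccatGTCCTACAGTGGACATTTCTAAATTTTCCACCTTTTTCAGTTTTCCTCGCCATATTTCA

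Markers of the main cerebellar neurons were well expressed and none of them fell. In whole tissue, fewer cells of a type and less RNA per cell cannot be told apart. Of 25 tested Purkinje markers, 5 rose (20%), 0 fell and the median log2 difference was 0.23, against 10.3% called and a median of 0.05 over all tested genes. Calb1, the calcium buffer calbindin, was 187 and 167 FPKM in the Atm mutants and 125, 139, 126 and 141 in the controls and rose by 0.42 (adjusted p = 0.0184). Plcb4, the phospholipase downstream of the metabotropic glutamate receptor, was 91.8 and 88.7 against 72.7 to 78.2 and rose by 0.28 (adjusted p = 0.00987). Car8, Ebf1 and Lhx5 also rose. Of 23 granule neuron markers, 7 rose, 0 fell and the median was 0.24. Neurod1, a transcription factor of granule neurons, was 99.6 and 92 against 51.4, 70.1, 53.1 and 59.9 and rose by 0.71 (adjusted p = 0.00461). Gabra6, the granule-specific subunit of the GABA-A receptor, was 336 and 286 against 209, 210, 223 and 229 and rose by 0.51 (adjusted p = 0.00405). Against the Aptx mutants the medians were -0.02 for Purkinje and 0.01 for granule neuron markers and no marker was called.

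The counts for these lists depended on single libraries and on scaling. Without Atm mutant 1, 0 Purkinje and 1 granule neuron markers rose, without Atm mutant 2 the counts were 1 and 3, and without control 2 it was 10 for Purkinje markers. After quantile normalization 3 Purkinje and 4 granule neuron markers rose. Of 14 tested inhibitory interneuron markers only Gad1, the GABA-synthesising enzyme, rose (0.40, adjusted p = 0.027), and that call was lost when either Atm mutant or control 1, control 3 or control 4 was left out. Sst, somatostatin, was 0.436 and 7.6 against 12, 12.7, 15.5 and 6.01, a spread in which its difference of -1.77 did not pass the test (adjusted p = 0.116).

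Astrocyte markers were mixed in level but reactive markers leaned higher. Of 18 astrocyte markers 5 rose (27.8%, against 6.94% higher over all tested genes) and 0 fell, with a median of 0.04. Hopx, a homeodomain protein of astrocytes and Bergmann glia, was 33.2 and 30.9 FPKM in the Atm mutants, 20, 18, 18.1 and 21.7 in the controls and 21.6 and 23 in the Aptx mutants. It rose by 0.70 against controls (SE 0.08, adjusted p = 0.00026) and was 0.51 higher than in the Aptx mutants, which did not pass the test (adjusted p = 0.0602). Gja1, the gap junction protein connexin 43, was 64.7 and 81 against 63.5, 45.8, 51.8 and 46.4 and rose by 0.49 (adjusted p = 0.0153). Slc1a3, the glutamate transporter of Bergmann glia, was 233 and 220 against 156, 196, 167 and 172 and rose by 0.39 (adjusted p = 0.0235). Slc4a4 rose by 0.33, and Gfap by 0.63 with overlapping groups at 47.2 and 65.3 against 51.1, 26.9, 33.5 and 34.7 (adjusted p = 0.0459). After quantile normalization the list had 2 members higher and 2 lower with a median of -0.04, and without Atm mutant 1 or Atm mutant 2 there were 2 and 1 higher. Of the 10 tested reactive astrocyte genes 4 rose (40%, against the same 6.94%), Gfap, Serpina3n, Timp1 and Vim, with a median of 0.47. Vim, the filament protein vimentin, was 40.6 and 42.7 against 23.6, 36.5, 25.7 and 26.4 and rose by 0.57 (adjusted p = 0.0154). The count was 1 when either Atm mutant was left out, and the list's median against the Aptx mutants was 0.06.

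Microglial markers fell in part. Of 19 tested, 4 fell (21.1%, against 3.39% lower over all tested genes) and 0 rose, with a median of -0.26. Ly86, which associates with a Toll-like receptor family protein, was 1.8 and 1.72 FPKM in the Atm mutants and 4.72, 4.08, 5.25 and 4.11 in the controls and fell 2-fold on the FPKM + 1 scale (adjusted p = 0.00751). Fcrls, a Fc receptor-like protein of mouse microglia, was 0.345 and 0.143 against 1.21, 0.935, 1.09 and 1.89 and fell by 0.86 (adjusted p = 0.00514). The complement subunit C1qb was 5.56 and 8.07 against 16.4, 8.98, 13.8 and 16.4 and fell by 0.91 (adjusted p = 0.0147), and C1qc fell as well. The summed level of the 20 markers was 83.6 and 108 in the Atm mutants, against 99.2 to 126 in the controls, so the sums overlapped. Without Atm mutant 1 only 1 marker fell, and without Atm mutant 2 it was 2. The median against the Aptx mutants was -0.04 with none called. Of 11 tested genes of activated microglia Cd9 rose (0.50, adjusted p = 0.0134) and none fell. Of 16 oligodendrocyte markers Olig1, a transcription factor of the lineage, fell by 0.40 (adjusted p = 0.0334), and of 9 precursor markers none was called.

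Markers of vessels, meninges and tissue next to the cerebellum moved as well, and their part in the other results was not tested. Acta2, Myh11 and Vtn, markers of vessel walls, rose among 18 endothelial and mural markers (16.7%, against 6.94% higher over all tested genes) with none falling. The count was lower when either Atm mutant was left out. Igf2, a growth factor of the meninges and choroid plexus, was 17 and 19 FPKM in the Atm mutants and 11.6, 6.77, 7.91 and 7.45 in the controls and rose by 1.03 (adjusted p = 0.00118). It and Slc6a20a (0.53) were the called members among 12 meningeal markers (16.7%, against 10.3% called over all tested genes). The 15 choroid plexus markers summed to 1280 and 1186 in the Atm mutants and 673, 307, 82.8 and 1032 in the controls, and although the median was 0.60 none was called. The 10 blood markers in the table summed to 868 and 2161 against 331, 480, 555 and 1508, with 0 of 7 tested called and a median of 0.86. Without control 4, 3 of the 7 were called higher. Against the Aptx mutants the medians were -0.07 for endothelial and mural, 0.11 for meningeal, -0.10 for choroid plexus and 0.21 for blood markers, and none of their genes was called.

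Of the 4 tested pituitary markers the hormone genes Prl, Gh and Pomc fell, and they varied strongly among the controls. Prl, prolactin, was listed at 0 in both Atm mutants and at 5.82, 53.4, 6.91 and 116 FPKM in the controls (adjusted p = 0.00778). Gh, growth hormone, was listed at 0 in both against 1.34, 4.07, 1.43 and 18.7 (adjusted p = 0.0451), and Pomc, the precursor of corticotropin, was 0.779 and 0.553 against 2.42, 10.7, 1.54 and 18.9 (adjusted p = 0.0433). Control 2 and control 4 were highest for all 3 genes, and the 3 calls were lost when either Atm mutant was left out. The fourth, Chgb, a secretory granule protein that neurons make too, was 200 and 166 against 108 to 158 (0.57, adjusted p = 0.051). With it, the summed level of the 10 markers was 202 and 168 in the Atm mutants and 124, 227, 125 and 263 in the controls, so those sums overlapped. Of 9 tested markers of brain stem and midbrain, 5 fell (Lhx9, Nts, Slc6a4, Tph2 and Vip), 0 rose and the median was -1.26. Over all tested genes 3.39% were lower and the median was 0.05. Members near 0 in the Atm mutants, such as Lhx9, Vip, Prl and Gh, passed the filter of 1 FPKM only through the controls. The counts and medians of the brain stem and pituitary lists are therefore tilted toward falls. All 20 brain stem markers in the table, tested or not, summed to 8.57 and 18.8 FPKM in the Atm mutants and to 51.5, 32.4, 52.3 and 27.6 in the controls, without overlap, and to 15.9 and 8.24 in the Aptx mutants and 12 to 25.6 in the double mutants. The count was 2 without Atm mutant 1 and 8 without control 2. Rln3, the relaxin-3 peptide of a brain stem nucleus, was listed at 0 in both Atm mutants and in control 2 and at 13.5, 11.6 and 12.4 in the other controls, and was chosen after its values were seen. The median of the brain stem list against the Aptx mutants was 0.05 with none called.

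**Figure D4:**
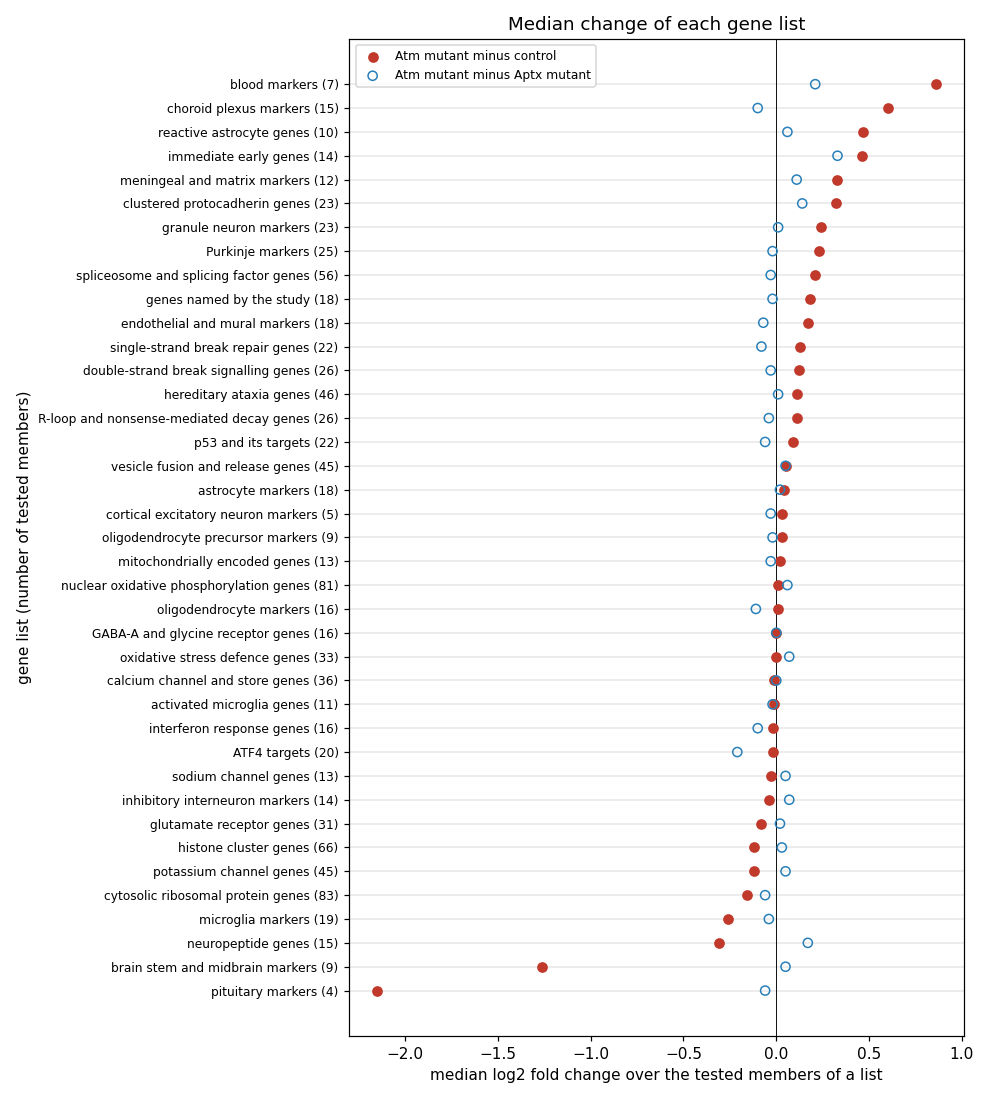
Median log2 difference of each gene list with at least 3 tested members, for Atm mutants against controls (filled) and for the same Atm mutants against Aptx mutants (open). Pituitary (-2.15) and brain stem markers (-1.26) lie far to the left against controls and at -0.06 and 0.05 against the Aptx mutants, and choroid plexus and blood markers lie to the right at 0.60 and 0.86. Pituitary and brain stem members near 0 in the Atm mutants passed the filter only through the controls, which tilts both medians toward falls.

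Genes of excitability and synaptic transmission were called in shares from 7.69% (sodium channels) to 17.8% (potassium channels), on either side of the 10.3% over all tested genes. Of 45 potassium channel genes 2 rose and 6 fell with a median of -0.12. Kcna3, a voltage-gated channel subunit, was 1.44 and 2.19 FPKM in the Atm mutants and 3.94, 4.39, 3.94 and 3.6 in the controls and fell by 0.83 (adjusted p = 0.0008). The accessory subunits Kcnab2 and Kcnip2 fell by 0.61 (adjusted p = 0.00584) and 0.88 (adjusted p = 0.00732). The Aptx mutants stood at 2.17 and 2.43 for Kcna3, also below every control. No potassium channel gene rose after quantile normalization or rescaling, where 6 and 8 fell, and 2 fell without Atm mutant 1. Of 13 sodium channel genes Scn3a, a subunit of immature neurons, fell by 0.81 (adjusted p = 0.0265). Of 36 calcium channel and store genes, the plasma membrane pump Atp2b4 (2.6 and 1.95 against 4.38 to 5.51) fell by 0.87 (adjusted p = 0.0029), the exchanger Slc8a1 fell by 0.37 and the pump Atp2b1 rose by 0.35 (adjusted p = 0.00375).

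At synapses, 2 of 31 glutamate receptor genes rose (Gria2 and Gria4, AMPA receptor subunits) and 3 fell (Cnih3, Grm5 and Shisa9). Both rises were lost on either rescaling. Among 16 GABA-A and glycine receptor genes Gabra6 rose and Glra2 fell by 0.85 (adjusted p = 0.0282). Of 45 genes of vesicle fusion and release, 3 rose and 3 fell. Stx1a, a syntaxin of the presynaptic membrane, was 0.431 and 0.579 FPKM in the Atm mutants and 2.64, 2.61, 3.03 and 1.3 in the controls and fell by 1.14 (adjusted p = 0.00201). Syt6 fell by 0.72 (adjusted p = 0.00751), whereas Syt1, the calcium sensor of fast release, was 97.2 and 92.9 against 70.6 to 76.3 and rose by 0.36 (adjusted p = 0.00283). Snap25, a partner of syntaxin, rose by 0.27 (adjusted p = 0.0163). Of 14 immediate early genes Nr4a2 alone was called, at 8.74 and 10.7 FPKM against 3.11, 5.39, 4.36 and 1.41. None of these channel and receptor genes was called against the Aptx mutants, and of the release genes only Unc13b was (-0.80, adjusted p = 0.0317).

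Of 26 tested genes of the response to DNA double-strand breaks, 4 rose (15.4%, against 6.94% higher over all tested genes) and 0 fell, with a median of 0.12. Smc1a and Smc3, subunits of the cohesin ring and Smc1a itself a substrate of ATM, were 35.1 and 34.1 against 23.6 to 26.6 FPKM and 33.5 and 33.2 against 25.1 to 26.5, and rose by 0.44 (adjusted p = 0.00152) and 0.35 (adjusted p = 0.00529). Ppm1d, the phosphatase WIP1 that reverses ATM phosphorylation, was 22.7 and 22 against 16.5, 16.5, 15.3 and 16.8 and rose by 0.44 (adjusted p = 0.00428), and Usp28 rose as well. In the Aptx mutants Smc1a was 36.6 and 34.5 and Ppm1d 21 and 21.3, above every control for both genes. Without Atm mutant 1, 1 gene of the list rose and 1 fell. The lists of single-strand break repair, p53 and oxidative defence genes each had 9.09% called, against 10.3% over all tested genes. Among 22 genes of single-strand break repair Parp2 rose by 0.52 (adjusted p = 0.0167) and Ung, a uracil glycosylase, fell by 0.44 (adjusted p = 0.0389). Of 22 p53 targets and regulators, Plk2 (0.34, adjusted p = 0.0158) and Mdm4 (0.25, adjusted p = 0.026) rose, neither after quantile normalization, and Mdm2, the main negative regulator of p53, was 18 and 19.6 against 14.1 to 16.6 (adjusted p = 0.0512). Of 33 genes of oxidative defence, Gpx3, an extracellular peroxidase, was 1.1 and 1.98 against 5.68, 3.3, 3.95 and 3.69 and fell by 1.02 (adjusted p = 0.00966), while Txn2 and Nfe2l2 rose by 0.35 and 0.37. No gene of this list rose after quantile normalization, after rescaling, with the replicate block or without any 1 of Atm mutant 1, Atm mutant 2, control 1, control 3 and control 4, and the fall of Gpx3 was lost without Atm mutant 1. Against the Aptx mutants the list's median was 0.07 with none called. None of 20 ATF4 targets and none of 16 interferon response genes was called against controls.

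Splicing factors held more rises, by number, than any other list. Of 56 tested, 17 rose (30.4% against 10.3% called over all genes) and 0 fell, with a median of 0.21 and a range from -0.16 to 0.54. Tra2a, a splicing regulator, was 22.9 and 23.5 FPKM in the Atm mutants and 17, 14.9, 16.5 and 14.5 in the controls and rose by 0.54 (adjusted p = 0.00288). Prpf3, a protein of the U4/U6 particle, was 11 and 10.6 against 7.06 to 7.44 and rose by 0.52 (adjusted p = 0.00428). Hnrnpk was 111 and 119 against 84.5 to 95.2 and rose by 0.36 (adjusted p = 0.00527). The Aptx mutants were at similar levels, with 20.7 and 23.3 for Tra2a, and the list's median against them was -0.03 with none called. The count was 6 without Atm mutant 1, 2 without Atm mutant 2, 9 without control 1, 8 without control 3 and 9 after quantile normalization. Of 26 genes of R-loop processing and nonsense-mediated decay, 5 rose (Aqr, Smg1, Thoc2, Top1 and Xrn2) and 0 fell. That is 19.2%, against 6.94% higher over all tested genes. After rescaling or quantile normalization the count was 1. Without Atm mutant 1 it was 1, and without Atm mutant 2 it was 0.

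Ribosomal protein genes went the other way. Of 83 tested, 20 fell (24.1%, against 3.39% lower over all tested genes), 0 rose and the median was -0.16. The count was lower when either Atm mutant was left out and was 29 without control 2. Rps3a, Rpl3 and Rps12 had the smallest p. Some near-copies of Rps3a and Rps12 rose, as given above, and the Rps12 total with its copies hardly differed. Among 81 nuclear genes of oxidative phosphorylation 5 rose and 3 fell (9.88% called, against 10.3% over all tested genes) with a median of 0.01, and none of 13 mitochondrially encoded genes was called. Of 66 histone genes 7 rose and 9 fell (24.2% called, against the same 10.3%). Hist1h2bj was 1.45 and 1.4 FPKM against 4.45, 4.7, 4.67 and 4.69 and fell by 1.21 (adjusted p = 0.000183), and 90% of its sampled stretches occur elsewhere in the genome. Hist4h4, without such copies, was 204 and 147 against 37.2, 48.6, 99.7 and 32.4. No histone gene rose without Atm mutant 1. Of 23 clustered protocadherins, cell surface proteins of neuronal identity, 8 rose (34.8%, against 6.94% higher over all tested genes), all of the beta cluster, and 0 fell, with a median of 0.32. Pcdhb4 was 4 and 4.94 against 1.06, 1.98, 2.47 and 1.19 and rose by 1.06 (adjusted p = 0.0149). Only 1 rose without Atm mutant 1, 0 without Atm mutant 2 and 2 without control 1 or control 4. Against the Aptx mutants the medians were -0.06 for ribosomal, 0.03 for histone and 0.14 for protocadherin genes.

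Genes of hereditary ataxia were called about as often as all tested genes. Of 46 tested, 5 rose (10.9% called, against 10.3%), namely Car8, Elovl5, Slc1a3, Syne1 and Ttpa, 0 fell and the median was 0.11. Against the Aptx mutants the median was 0.01 with none called. Syne1, the nuclear envelope protein nesprin-1, was 196 and 183 FPKM in the Atm mutants and 135, 140, 127 and 136 in the controls and rose by 0.49 (adjusted p = 0.0085). The count was 1 when either Atm mutant was left out. The 18 genes that the study names in its text or among its primers were chosen with libraries of this series known, so their direction is no independent evidence. Of them 3 rose (Car8, Slc1a3 and Chn2), 0 fell and the median was 0.18, and all 3 calls were lost when either Atm mutant was left out. Itpr1, the calcium release channel of Purkinje cells, was 311 and 284 FPKM in the Atm mutants and 232, 348, 278 and 278 in the controls, a difference of 0.08 (SE 0.14, adjusted p = 0.766) well within the spread of the controls. Car8, which binds that channel, was 271 and 282 against 196, 189, 171 and 230 and rose by 0.50 (adjusted p = 0.0133). Kcnip4, an accessory subunit of potassium channels, was 52.5 and 49 against 48.2 to 52.3 (0.04, adjusted p = 0.79).

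The 23 genes called against the Aptx mutants often lay close together or were set by the Aptx side. Of them 14 start within 1 Mb of another, 5 lie on chromosome 9, and 12 were not called in Atm mutants against controls but were called in Aptx mutants against controls, as were 8.75% of all tested genes. Slc7a3 and Bex4, which lie on the X chromosome, are among the 23, and the 2 Aptx mutants differ in their Y-linked transcripts. Mapkapk3, a kinase downstream of p38, was such a case: 1.73 and 2.1 FPKM in the Atm mutants, 1.65, 2.17, 2.03 and 2.16 in the controls and 0.485 and 0.751 in the Aptx mutants. Rpl29 was 42 and 61.3, 77.9 to 80.9, and 7.25 and 8.34 in these groups, so the Atm mutants stood between the others. It and Tdgf1 were called in opposite directions in the 2 comparisons. The remaining 9 genes called in both moved the same way: Gpr153, Hes3, Cthrc1, Rpl30, Gm10600, Gm10595, Gm5506, Gm17669 and Ankrd37. Without Aptx mutant 1, Aptx mutant 2 or Atm mutant 1, the number called was 7, 12 and 11.

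Cthrc1, a secreted protein of the extracellular matrix, was 0.706 and 0.439 FPKM in the Atm mutants, 3.12, 2.72, 3.4 and 3.16 in the controls, 2.77 and 2.32 in the Aptx mutants and 2.3 to 3.12 (median 2.68) in the double mutants. It fell by 1.39 against controls (adjusted p = 4.38e-06) and by 1.18 against the Aptx mutants (adjusted p = 0.000587). Gpr153, an orphan receptor, was 1.74 and 1.68, 6.28 to 7.63, 6.35 and 5.08, and 4.56 to 7.99 (median 5.74), and fell by 1.54 (adjusted p = 1.9e-05) and 1.30 (adjusted p = 0.00274). Hes3, a basic helix-loop-helix repressor of the Notch pathway, was 4.92 and 3.17, 7.4 to 9.44, 11.1 and 9.5, and 8.77 to 11.4 (median 10.1), and fell by 0.85 (adjusted p = 0.0024) and 1.18 (adjusted p = 0.00345). In all 3 genes both Atm mutants lay below every other cerebellum library, the double mutants included, which carry the same Atm genotype by label. Gpr153 (chr4:151648341-151659446, plus strand) and Hes3 (chr4:151660081-151665771, minus strand) point toward each other with 634 bases between them.

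Because Cthrc1 and Gpr153 were lower in the Atm mutants than in every other group, their promoters are shown, from 250 bases before to 50 bases after the annotated start in the GENCODE annotation of build NCBIM37. Capitals mark the GC box GGGCGG on either strand, which overlapping copies can share. Cthrc1 (chr15:38908228-38908527, plus strand) and Gpr153 (chr4:151648091-151648390, plus strand) each hold 4, and 43.6% of 21909 promoters of this length hold at least 1. The share of promoters with 4 was not counted, so whether 4 is unusual is not shown.
Cthrc1: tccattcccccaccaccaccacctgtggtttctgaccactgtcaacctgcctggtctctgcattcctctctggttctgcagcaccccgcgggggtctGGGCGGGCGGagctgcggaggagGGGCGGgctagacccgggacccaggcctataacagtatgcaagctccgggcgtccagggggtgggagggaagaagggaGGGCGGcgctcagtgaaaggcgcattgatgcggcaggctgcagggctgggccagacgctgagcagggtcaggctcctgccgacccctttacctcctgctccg
Gpr153: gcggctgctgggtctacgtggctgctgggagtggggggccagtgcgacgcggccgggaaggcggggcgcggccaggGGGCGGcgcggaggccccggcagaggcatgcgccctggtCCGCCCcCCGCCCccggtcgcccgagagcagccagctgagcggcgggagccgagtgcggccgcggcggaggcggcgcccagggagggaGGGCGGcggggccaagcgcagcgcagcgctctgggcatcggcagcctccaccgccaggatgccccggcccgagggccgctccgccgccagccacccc

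Of the 23 genes called against the Aptx mutants, 13 have more than 50% of their sampled stretches elsewhere in the genome, against 7.99% of all tested genes. Among these, Gm10600, Gm10595, Gm5506 and Gm17669 rose in the Atm mutants against both groups, and Rpl30 fell against both. Rpl29 was called in opposite directions, and the others were called against controls only in the Aptx mutants. Gm10600 was 3.39 and 3.8 FPKM in the Atm mutants, 0.113 to 0.282 in the controls and 0.161 and 0.189 in the Aptx mutants, and rose by 1.93 (adjusted p = 2.2e-06) against controls. Gm10595, which begins 329901 bases beyond the end of Gm10600 on chromosome 4, was 1.67 and 3.27 in the Atm mutants and listed at 0 in the other 12 cerebellum libraries. Gm5506, whose coding sequence is 99.4% identical to that of the glycolytic enzyme gene Eno1, was 94.7 and 95.8 against 43.8 to 66.8 in the controls and rose by 0.88 (adjusted p = 0.00118). Eno1 was 75.6 and 73.6 against 100, 89.8, 108 and 107 and fell by 0.43 (adjusted p = 0.00678). The sum of the pair was 170 and 169 in the Atm mutants and 148 to 158 in the controls, so its parts moved more than the sum.

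Around Atm on chromosome 9 the share of called genes was close to that of the genome. Of 10 tested genes within 1 Mb of Atm, 1 was called (10% against 10.3% overall): Exph5, at 60.3 and 55.6 FPKM in the Atm mutants and 42.3, 46.4, 42.3 and 51 in the controls, rose by 0.34 (adjusted p = 0.0213). In the Aptx mutants it was 60.1 and 63.2, and the call was lost when either Atm mutant was left out. Npat, a histone gene activator that starts 307 bases from Atm, was 10.5 and 11.7 against 9.66 to 11.8 (0.04, adjusted p = 0.804). The other 8, AI593442, Ddx10, Kdelc2, Acat1, Cul5, Sln, Elmod1 and Dmxl2, had log2 differences from -0.05 to 0.31 with none called. Within 20 Mb, 35 of 280 genes were called (12.5%), Prtg and Cgnl1 among them, and against the Aptx mutants 0 of the same genes were.

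**Figure D5:**
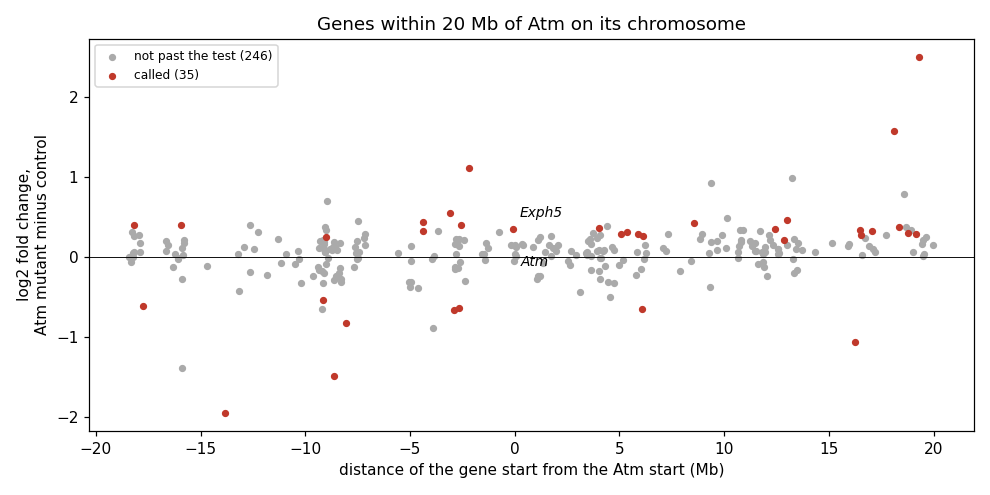
Log2 difference between Atm mutants and controls of tested genes on chromosome 9 against their distance from Atm in megabases. Distance is the gap between the nearest ends of the gene and Atm, although the axis title speaks of starts. The window runs to 20 Mb on either side, with the 35 called genes in colour. Called genes occur along the whole window, and Prtg stands highest at 2.50.

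A different test of Atm loss compares double mutants with Aptx mutants, which differ by the Atm deletion, share library series and share no library with the comparison against controls. It called 18 genes (0.139%), 10 higher (0.0771%) and 8 lower (0.0617%). Itpr1 fell by 2.88 (adjusted p = 3.1e-08), from 308 and 293 FPKM in the Aptx mutants to between 33.6 and 48.1, and Car8 fell by 0.90 (adjusted p = 0.00187), from 262 and 310 to between 137 and 164. Of the 18 genes 5 were also called in Atm mutants against controls, as were 10.3% of all tested genes. Car8 went the opposite way there (0.50). Ednrb alone among the rises shared by both kept its call against controls when either Atm mutant was left out. The 4 that rose in both were Ednrb, an endothelin receptor of astrocytes (0.55 and 0.43), Acot1, an acyl-CoA thioesterase (0.48 and 0.62), the interferon-induced membrane protein Ifitm1 (0.73 and 1.04) and the astrocyte filament gene Gfap (0.63 and 1.09). Ednrb was 35.3 and 41.6 FPKM in the Atm mutants against 26.3, 24.7, 26.3 and 26.1 in the controls, and 42.3 to 49.7 in the double mutants against 34 and 33 in the Aptx mutants, without overlap in either pair. The Aptx mutants, which carry no Atm deletion by label, also lay above every control for Ednrb. Th, the rate-limiting enzyme of catecholamine synthesis, and Hrk, a proapoptotic BCL-2 family member, rose in the double mutants (1.46 and 1.42) and stood at -0.30 (adjusted p = 0.275) and -0.36 (adjusted p = 0.254) in the Atm mutants. The number of calls was 4 without Aptx mutant 1, 2 without Aptx mutant 2 and 9 without double mutant 6.

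The difference between the 2 effects of Atm loss, with Aptx absent minus with Aptx present, was itself tested and called 604 genes (4.66%), 225 higher (1.74%) and 379 lower (2.92%). The larger side depended on scaling, with 264 higher and 241 lower after quantile normalization and 256 and 220 after rescaling to a common median. This sets a difference within a library series against one between series. For Itpr1 it was -2.96 (adjusted p = 2.12e-06), for Car8 -1.40 (adjusted p = 0.000161) and for Th 1.76 (adjusted p = 0.000917), and in all 10 of the 18 genes were called. Among the genes with large differences from the controls it was -2.55 for Prtg (adjusted p = 2.34e-05), 2.12 for Cnih3 (adjusted p = 0.000882), 2.68 for Rps3a (adjusted p = 0.000131) and -3.73 for Gm10800 (adjusted p = 9.99e-05). In these 4 genes the double mutants differed from the Aptx mutants by -0.05, -0.19, 0.13 and 0.55, none of them called, so the difference came almost wholly from the Atm mutant and control side. Of the 25 Purkinje markers 7 were called lower in this test, with a median of -0.38, and of the 83 ribosomal protein genes 27 were called higher, with a median of 0.36. Over all tested genes 2.92% were lower and 1.74% higher, and the median was -0.05. In double against Aptx mutants 2 of these Purkinje markers were called lower and 0 of the ribosomal protein genes were called. The test subtracts the comparison against controls, so the signs of both lists largely follow from that comparison. It rested on single libraries, with 119 genes called without Aptx mutant 2, 157 without Atm mutant 1, 189 without Aptx mutant 1, 258 without Atm mutant 2, 322 without control 1 and 328 without control 3.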

How the data were processed

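The authors made stranded libraries from total RNA extracted in TRIzol, after ribosomal RNA had been depleted. They sequenced on an Illumina HiSeq instrument, mapped reads to mm9 with BWA 0.5.10, counted them per gene with HTSeq (version not given in the sources used here) and deposited FPKM, 1 column per library. How multi-mapped reads were handled is not given in the sources used here, and neither is the reason for the different number formats. Relative depth could be read from low values only within the mutants: at 0.2 FPKM and below, 23.3% of 1741 genes shared 1 ratio (tolerance 0.001) between the Atm mutants, which put Atm mutant 2 at 0.804 of Atm mutant 1.

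From the deposited FPKM, log2(FPKM + 1) was fitted in limma 3.58.1 (R 4.3.3, eBayes with trend, two-sided tests, Benjamini-Hochberg over 12963 genes), with the 14 cerebellum libraries in 1 fit of 4 genotypes and no covariate, following the study's use of limma. On simulated data 97 of 100 genes changed by 1 and 99 of 100 changed by 2 on the log2 scale were recovered for Atm mutant against control. The changed genes were drawn from those well expressed in controls, with independent noise and no difference between library series. These rates therefore do not describe low genes or a difference between series. Positions and sequences came from the GENCODE annotation of build NCBIM37, which placed 12901 of the tested genes (99.5%). Copies were counted for 20 stretches of 31 bases per gene. Figures were drawn with Python 3.11.15, numpy 2.4.6 and matplotlib 3.10.9.

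The labels name samples and give no animal, so p-values measure the spread between these samples, which may be technical. Named genes were Atm, Aptx, the 14 lowest and 14 highest called log2 differences against controls with both Atm mutants on 1 side of all controls, the 6 lowest and 6 highest against Aptx mutants, up to 3 members per list with the smallest p, genes within 1 Mb of Atm and the study's named genes, with uncharacterised symbols passed over in rankings. Other genes named (all Gm symbols, near-copy families, further list members and those named for the double mutants) were chosen after their values were seen. Members and all 39 lists were chosen with earlier results of these data known. The 18 alternatives covered pseudocounts of 0.1 and 0.01, no filter, a mean of at least 5 FPKM, 2 rescalings, a fit of 6 libraries, no trend, the replicate block and single libraries left out. Some genes that meet these rules, and 1 promoter, are not reported here.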

Additional observations from a re-analysis of the deposited data

Results flagged for a closer look

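The effect of Atm loss differed between cerebella with and without Aptx in 604 of the tested genes, and among the genes named in the text the values of this difference (double minus Aptx mutant, minus Atm mutant minus control, on the log2 scale, adjusted p below 0.05 in limma) were as follows. They set a difference within a library series against one between series, and series and genotype cannot be told apart in them. Of the genes called in double against Aptx mutants, the negative values were those of Car8 (-1.40) and Itpr1 (-2.96), and the positive ones those of Hrk (1.79) and Th (1.76). Among ranked genes the values were Acta2 (-1.35), Cgnl1 (-1.58), Cnih3 (2.12), Eomes (-1.58), F2r (-2.27), Hmcn1 (-2.66), Il22 (-1.60), Lhx9 (1.98), Nts (2.12), Pla2g4e (-2.23), Prl (4.93), Prtg (-2.55), Rps3a (2.68), Serpina3n (-1.63), Vip (1.61) and Zcchc12 (2.17). Among uncharacterised genes, most of them with copies, they were Gm10359 (-1.64), Gm10595 (-1.75), Gm10600 (-1.84), Gm10718 (-1.94), Gm10722 (-3.19), Gm10800 (-3.73), Gm10801 (-2.05), Gm11167 (-3.14), Gm12033 (-2.07) and Gm5506 (-0.84).

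Of the named markers of cerebellar neurons, genes linked to ataxia and other neuronal genes, the values were Calb1 (-0.71), Chn2 (-0.72), Elovl5 (-0.38), Gabra6 (-0.58), Gria4 (-0.41), Kcnip4 (-0.37), Plcb4 (-0.38), Slc1a3 (-0.80) and Syne1 (-0.72), and of microglial markers C1qb (1.54), C1qc (0.79), Fcrls (1.07) and Ly86 (1.26). Most of these genes were named for a small p against controls. That comparison enters the value with opposite sign, so the signs largely follow from it and are no separate result. Of the 1338 genes called against controls, 487 were called in this test and 5 in double against Aptx mutants. Genes of excitability and release gave Atp2b1 (-0.33), Atp2b4 (0.83), Kcna3 (1.13), Kcnab2 (0.63), Snap25 (-0.37), Stx1a (1.33) and Syt1 (-0.36). Genes of DNA repair, p53 regulation and RNA processing gave Mdm4 (-0.35), Ppm1d (-0.51), Prpf3 (-0.49), Smc1a (-0.52), Smc3 (-0.41), Top1 (-0.44), Tra2a (-0.68) and Usp28 (-0.62), and ribosomal protein and histone genes gave Hist1h2bj (1.63), Rpl3 (1.15) and Rps12 (0.88). The genes picked out by the comparison with Aptx mutants, by the pair Gm5506 and Eno1 or by position near Atm gave Cthrc1 (1.44), Eno1 (0.48), Exph5 (-0.45), Gpr153 (1.58), Hes3 (0.82), Rpl30 (0.81) and Tdgf1 (0.61).

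A single control stood away from the other 3, with a gap larger than Dixon's 95% critical value, for Chgb (158 FPKM in control 2), Chn2 (194 FPKM in control 2), Cul5 (16.8 FPKM in control 2), Ednrb (24.7 FPKM in control 2), Gh (18.7 FPKM in control 4), Gm10134 (8585 FPKM in control 4), Gm10359 (12.8 FPKM in control 2), Hes3 (9.44 FPKM in control 2), Hist1h2bj (4.45 FPKM in control 1), Pla2g4e (6.4 FPKM in control 3), Plcb4 (78.2 FPKM in control 4), Rln3 (0 FPKM in control 2), Rps12 (76.4 FPKM in control 1) and Vip (1.36 FPKM in control 4). Chance gives about 1 such group in 20, and whether the listed genes exceed that rate was not tested. Control 2 was the library concerned in 7 of these genes.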

How the results depend on the processing

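No called difference of a named gene against controls reversed under any alternative. The larger side of the calls did turn: against controls 899 were higher and 439 lower, but 534 and 543 after quantile normalization and 538 and 593 after rescaling, and for the difference between the effects 225 and 379 became 264 and 241, and 256 and 220. Calls against controls (1338) were 519 in a fit of the 6 libraries alone and ran from 316 to 1567 with single libraries left out. The 129 genes past both thresholds became 268 and 265 with pseudocounts of 0.1 and 0.01 and 47 with a mean of at least 5 FPKM, and ran from 61 to 156. The 23 calls against Aptx mutants were 13 with a mean of at least 5 FPKM and 7 to 25 with a library left out. The 18 calls of double against Aptx mutants were 9 without a filter, 10 with a mean of at least 5 FPKM and 10 without the intensity trend, and ran from 2 to 9. The 604 calls of the difference between the effects ran from 119 to 790. The cause was not tested, beyond the smaller number of libraries or genes that some alternatives use.

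The labels give replicate numbers to the groups, but nothing in them says that a number marks a shared animal or day. In their deviations from the group means, Atm mutant and control 1 correlated at -0.185 and number 2 at -0.155, and Aptx mutant and double mutant 1 at -0.114 and number 2 at -0.1. The 2 Atm mutants deviate from their mean as mirror images, and so do the 2 Aptx mutants. Their signs are therefore tied, and these values cannot show whether a number marks a pair. With the replicate block, calls were 850 against controls, 2 for double against Aptx mutants and 144 for the difference between the effects. The 6-library fit gives no value for the comparisons that use Aptx or double mutants. Only 2 Atm mutants and 2 Aptx mutants limit the comparisons they enter, and leaving out either of a pair leaves a lone sample that is assumed to vary like the other groups.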
